A study of Mus musculus with 6 samples.

Results

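The genes described here encode the MD-1 and RP105 complex and the Toll-like receptors of the cell surface with their helpers, in GM-CSF cultures of mouse bone marrow grown on a stiff or a soft substrate. They are 9 genes of the 24062 in the count tables: Ly86 and Cd180, Ly96 and Tlr4, the LPS-binding co-receptor gene Cd14, the lipopeptide receptor genes Tlr1, Tlr2 and Tlr6, and the shared adaptor gene Myd88, which is itself no receptor. They were picked by name with their levels at both stiffnesses already known, so their levels and their differences between the stiffnesses are a description and carry no test. All 9 were present and all 9 passed the filter on low counts.

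At 50 kPa, called high tension, the cells were C57BL/6J marrow from femur and tibia, cultured with GM-CSF at 20 ng/ml that was renewed on days 3, 6 and 10. At 2 kPa, called low tension, strain, cytokine and schedule were the same. Each stiffness had 3 samples of sequenced polyA RNA, with 33.8 M to 36.3 M counts each, and the comparison asks how substrate stiffness alters transcription across such a culture. The titles name dendritic cells, but the labels name no sort and do not say that replicates came from separate animals or cultures, so each value averages over all cell types and the spread between samples may be technical. In bulk RNA, fewer cells of a type and less RNA per cell cannot be told apart.

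Toll-like receptors bind microbial products with a leucine-rich ectodomain and signal through cytoplasmic adaptors such as MyD88 to NF-kB and MAP kinases. Tlr4 encodes the LPS receptor, which needs the secreted protein MD-2 (Ly96) to hold the lipid A of LPS, while CD14 hands LPS over to that complex. Cd180 encodes RP105, a Toll-like receptor homologue that lacks the signalling domain; it is carried to the cell surface by MD-1 (Ly86), a homologue of MD-2, and in mouse macrophages and dendritic cells the pair is known to restrain TLR4, whereas in B cells it promotes activation. TLR2 pairs with TLR1 or TLR6 to bind bacterial lipopeptides.

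The libraries were not equally distinct. High tension replicates 1 and 2 resembled each other far more than any other libraries of a group, the chi-square per degree of freedom of their counts being 6.71, while the remaining replicate pairs of a stiffness gave 126 to 233. On the first principal component high tension replicate 3 (8.06) and low tension replicate 1 (-13.1) lay between the other high tension libraries (54.5 and 59.5) and the other low tension libraries (-57.4 and -51.5). Of 12 tested dendritic cell markers, 8 had a positive and 4 a negative log2 fold change. Itgax, the gene of CD11c, was at 1412 to 2958 CPM at 50 kPa and 299 to 1109 CPM at 2 kPa. Ccr7 went the other way, at 141 to 309 CPM at 50 kPa and 316 to 579 CPM at 2 kPa. Xcr1, a marker of cross-presenting dendritic cells, had 16 counts over all libraries and was not tested. Levels are CPM, read counts relative to library size and scaled with TMM factors. Log2 fold changes are 50 kPa over 2 kPa, with the standard error (SE) of the edgeR fit.

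Ly86 stood well above its 2 kPa level in every 50 kPa library, whereas the libraries of its receptor gene Cd180 overlapped between the stiffnesses. Ly86 had 48.8, 45.1 and 28.7 CPM in high tension replicates 1 to 3, against 7.22, 3.07 and 7.06 CPM in low tension replicates 1 to 3. The groups did not overlap: the lowest 50 kPa library lay far above the highest 2 kPa library, and high tension replicate 3 was the lowest of its group. The means were 40.8 ± 10.7 CPM at 50 kPa and 5.78 ± 2.35 CPM at 2 kPa (SD, n = 3 each), a fitted 7.07-fold difference and a log2 fold change of 2.82 ± 0.38 (SE). It was the 21st largest positive log2 fold change of 13155 genes. Leaving out any library, it lay between 2.51 and 3.03, and it was 2.73 with high tension replicates 1 and 2 summed into 1 sample.

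Cd180 had 51.0, 50.8 and 83.2 CPM in high tension replicates 1 to 3, against 58.5, 33.3 and 90.5 CPM in low tension replicates 1 to 3. The groups overlapped fully, with the third replicate the highest at each stiffness. Its log2 fold change was 0.02 ± 0.38 (SE), and leaving out 1 library moved it between -0.28 and 0.43, so its sign is not fixed by these data. A transcript of Mast4 on the opposite strand shares 182 bases, or 4.04%, of the Cd180 exons. The sources used here do not state whether counting used strand, so reads of that stretch cannot be told apart.

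Both genes lie on chromosome 13, plus strand, in GENCODE vM21 on GRCm38, Ly86 at 37345208 to 37419036 and Cd180 at 102693558 to 102739629. The stretch around their RefSeq start sites, 250 bases before to 50 after on GRCm38.p6, is printed because only Ly86 of these partner genes had groups that did not overlap. Ly86 covers chr13:37345095-37345394 and Cd180 chr13:102693297-102693596, the first of the 2 Cd180 starts in the table, both on the plus strand and written 5′ to 3′. Capitals mark matches to an interferon regulatory factor core, AANNGAAA on either strand.
Ly86: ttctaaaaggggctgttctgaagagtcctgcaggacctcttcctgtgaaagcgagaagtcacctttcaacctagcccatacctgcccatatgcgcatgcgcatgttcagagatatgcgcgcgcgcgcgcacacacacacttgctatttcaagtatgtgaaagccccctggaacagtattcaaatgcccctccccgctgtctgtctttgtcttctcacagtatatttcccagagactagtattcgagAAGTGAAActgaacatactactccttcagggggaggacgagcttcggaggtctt
Cd180: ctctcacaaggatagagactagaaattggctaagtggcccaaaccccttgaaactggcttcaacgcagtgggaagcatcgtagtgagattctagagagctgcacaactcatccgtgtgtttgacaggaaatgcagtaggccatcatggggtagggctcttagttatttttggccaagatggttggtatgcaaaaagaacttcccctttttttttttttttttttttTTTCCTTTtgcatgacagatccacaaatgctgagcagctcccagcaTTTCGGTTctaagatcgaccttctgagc
In Ly86 the match begins 4 bases before the RefSeq start site on the plus strand. The GENCODE start of Ly86, 37345208, lies earlier in the printed stretch, so by that annotation the match falls inside the gene. Cd180 has 2 matches, both on the minus strand, beginning 24 bases before and 23 bases after the start site. Such a match is common: 23.9% of 32851 promoters in the RefSeq table hold it. Neither stretch holds GAGGAA, the PU.1 core (28.3% of promoters), the AP-1 letters TGANTCA (7.81%) or a 10-letter NF-kB motif (4.79%), each searched on both strands. These are letter matches and not binding sites.

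**Figure D1:**
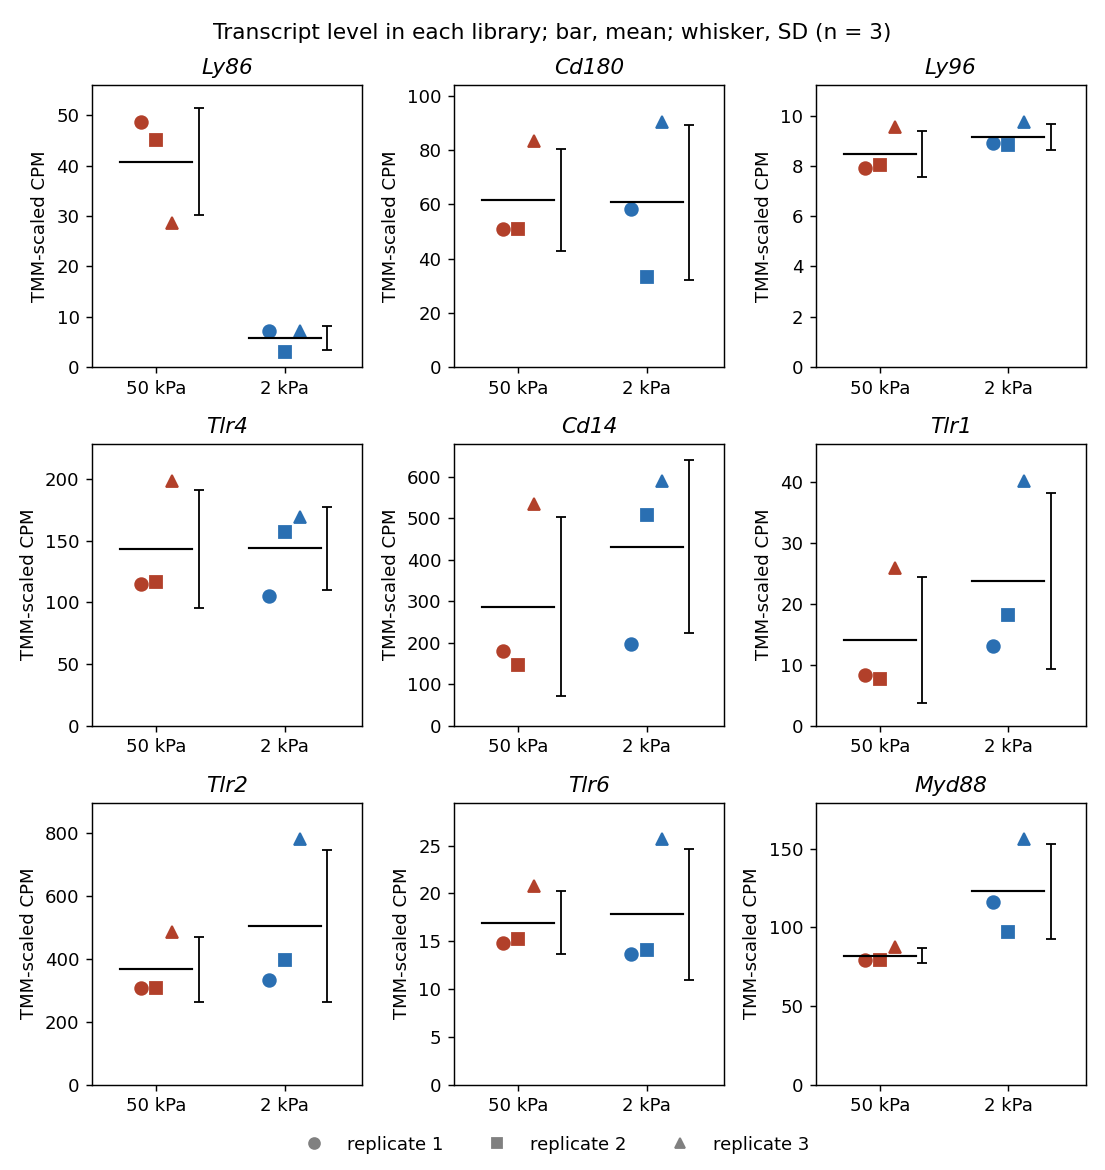
TMM-scaled CPM (y axis, from 0) of each gene in the 3 libraries at 50 kPa (red) and the 3 at 2 kPa (blue), with the mean as a bar and the SD as a whisker; symbols give the replicate number. Ly86 libraries sit at 28.7 to 48.8 CPM at 50 kPa and 3.07 to 7.22 CPM at 2 kPa, and replicate 3 is the highest library of its group for Cd180, Ly96, Tlr4, Cd14, Tlr1, Tlr2, Tlr6 and Myd88.

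The LPS receptor pair did not show the pattern of Ly86. Ly96 had 7.90, 8.03 and 9.55 CPM in high tension replicates 1 to 3, against 8.90, 8.83 and 9.76 CPM in low tension replicates 1 to 3. MD-2 transcript thus varied less over the 6 libraries than any other of the 9, at 8.49 ± 0.915 CPM at 50 kPa and 9.16 ± 0.519 CPM at 2 kPa (SD, n = 3 each), and the groups overlapped. Its log2 fold change was -0.11 ± 0.13 (SE). Tlr4 had 115, 116 and 199 CPM in high tension replicates 1 to 3, against 105, 157 and 169 CPM in low tension replicates 1 to 3. Here too the groups overlapped, high tension replicate 3 being the highest library and low tension replicate 1 the lowest. The log2 fold change of Tlr4 was -0.0045 ± 0.28 (SE), between -0.31 and 0.15 when any 1 library was left out. Ly96 lies on chromosome 1, 16688051 to 16709611, and Tlr4 on chromosome 4, 66827584 to 66930284, both on the plus strand of GRCm38.

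Set against its receptor within each library, MD-1 transcript had proportions that did not overlap between the stiffnesses, and MD-2 transcript had proportions that did. Levels of different genes were compared per kilobase of annotated exon, counting every exon annotated for a gene. That length was 3632 bases for Ly86 and 4509 for Cd180. Which of these exons the cells used was not examined, and the level of a gene against another depends on it. On that scale the ratio of Ly86 to Cd180 was 1.19, 1.10 and 0.428 in high tension replicates 1 to 3, against 0.153, 0.114 and 0.0968 in low tension replicates 1 to 3. Ly86 was thus about level with Cd180 per kilobase in high tension replicates 1 and 2, below it in high tension replicate 3, and far below it in all 2 kPa libraries. The ratio of Ly96 to Tlr4 was 0.375, 0.376 and 0.262 in high tension replicates 1 to 3, against 0.461, 0.306 and 0.315 in low tension replicates 1 to 3. Those values overlapped, and Tlr4 was above Ly96 per kilobase in all 6 libraries. As a log2 difference of CPM (prior count 2), Ly86 minus Cd180 averaged -0.59 ± 0.82 at 50 kPa and -3.36 ± 0.33 at 2 kPa, and Ly96 minus Tlr4 averaged -4.02 ± 0.30 at 50 kPa and -3.93 ± 0.33 at 2 kPa (SD, n = 3 each). The mean log2 CPM of the Ly86 and Cd180 pair minus that of the Ly96 and Tlr4 pair was 0.72, 0.64 and 0.16 in high tension replicates 1 to 3, against -0.57, -1.87 and -0.68 in low tension replicates 1 to 3. The difference of the group means was 1.55, and 1.14 to 1.79 with 1 library left out. Of the genes in it, Cd180, Ly96 and Tlr4 had log2 fold changes between -0.11 and 0.02.

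**Figure D2:**
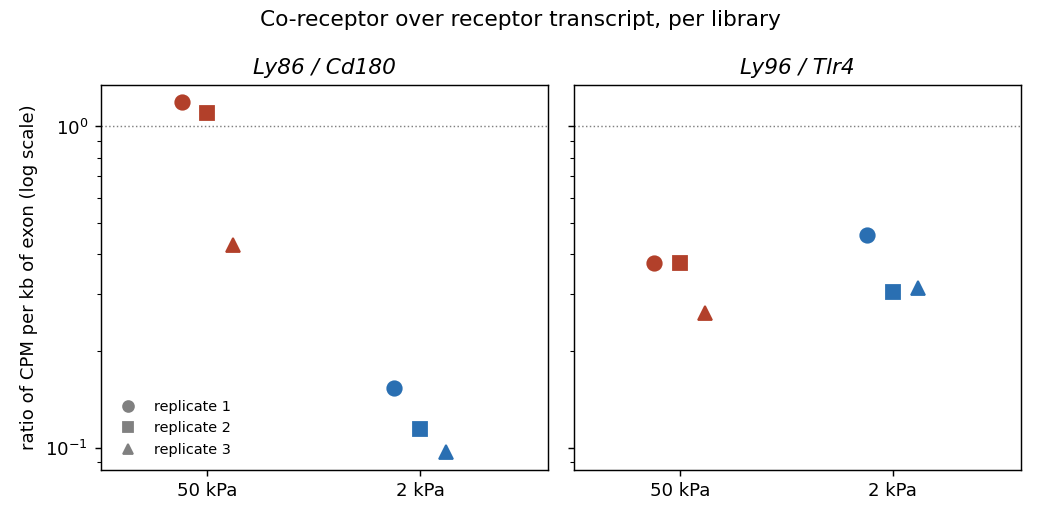
Ratio of co-receptor to receptor transcript, in CPM per kilobase of exon (log axis), in each library at 50 kPa (red) and 2 kPa (blue); the dotted line marks equal levels. Ly86 over Cd180 lies at 0.428 to 1.19 at 50 kPa and 0.0968 to 0.153 at 2 kPa, whereas the Ly96 over Tlr4 ratios of both groups lie between 0.262 and 0.461.

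The co-receptor gene Cd14 and the lipopeptide receptor genes had libraries that overlapped between the stiffnesses, with differences of the means no larger than the larger SD. Cd14 had 181, 145 and 534 CPM in high tension replicates 1 to 3, against 196, 507 and 590 CPM in low tension replicates 1 to 3. Low tension replicate 1 therefore lay with high tension replicates 1 and 2, and high tension replicate 3 with the other 2 kPa libraries. Its log2 fold change was -0.59 ± 0.61 (SE), and -1.40 without high tension replicate 3. Tlr2 had 306, 306 and 485 CPM in high tension replicates 1 to 3, against 332, 396 and 779 CPM in low tension replicates 1 to 3. The third replicate was again the highest of each group, and the log2 fold change of -0.46 ± 0.37 (SE) became 0.0062 without low tension replicate 3. Tlr1 had 8.40, 7.70 and 26.0 CPM in high tension replicates 1 to 3, against 13.04, 18.2 and 40.3 CPM in low tension replicates 1 to 3. These groups overlapped through high tension replicate 3, and the log2 fold change of -0.76 ± 0.62 (SE) was -1.56 without that library and -0.15 without low tension replicate 3. Tlr6 ranged from 14.8 to 20.7 CPM at 50 kPa and from 13.7 to 25.7 CPM at 2 kPa, with a log2 fold change of -0.07 ± 0.29 (SE). Tlr1 and Tlr6 lie beside each other on the minus strand of chromosome 5 (64924679 to 64933563 and 64952031 to 64960097 on GRCm38), and 13.6% of the 50-base stretches of Tlr1 transcripts and 12.3% of those of Tlr6 are found in both. The sources used here do not state how reads with several matches were counted, so their separate values are uncertain.

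Myd88, the adaptor of all these Toll-like receptors, was the other gene whose groups did not overlap. It had 79.5, 79.4 and 87.3 CPM in high tension replicates 1 to 3, against 116, 96.9 and 156 CPM in low tension replicates 1 to 3. The 50 kPa libraries lay close together below every 2 kPa library, whose highest was low tension replicate 3. The means were 82.1 ± 4.55 CPM at 50 kPa and 123 ± 30.2 CPM at 2 kPa (SD, n = 3 each), with a log2 fold change of -0.58 ± 0.18 (SE), or -0.38 without low tension replicate 3. Exons of Acaa1a on the opposite strand share 290 bases, 11.3%, of the Myd88 exons at chromosome 9, 119335934 to 119341411, minus strand. Acaa1a itself was at 121 ± 10.0 CPM at 50 kPa and 145 ± 34.8 CPM at 2 kPa (SD, n = 3 each).

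Of the 9 genes, 1 was called higher and 0 lower at an edgeR adjusted p under 0.05, beside 1.47% and 1.98% of all 13155 genes. The called gene was Ly86; the call was kept without high tension replicate 3 or low tension replicate 1 and lost without any of the other 4 libraries and with high tension replicates 1 and 2 summed. DESeq2 called 2 of the 9, Ly86 and Myd88, beside 18% of all genes. At an unadjusted p under 0.05 edgeR gave these same 2 genes, beside 27.8% of all genes. Groups that did not overlap were seen in 1 gene higher and 1 lower, beside 17.2% and 16.9% of all genes, 34.1% in either direction. The median log2 fold change of the 9 was -0.11, beside -0.03 for all genes. Since the genes were chosen with this comparison known, nothing is read from these counts.

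**Figure D3:**
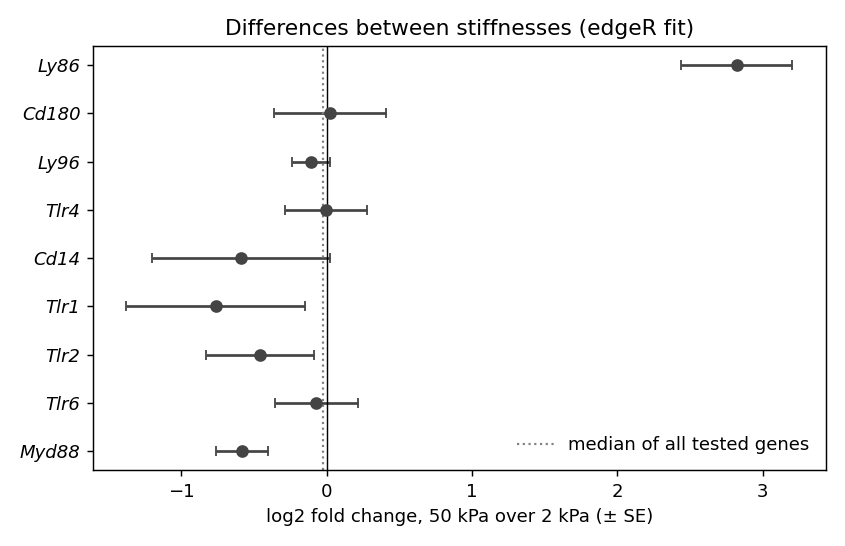
Log2 fold change of each gene, 50 kPa over 2 kPa (x axis), with its SE from the edgeR fit as a bar; the dotted line is the median of all tested genes, -0.03. Ly86 stands at 2.82, the other genes lie between -0.76 (Tlr1) and 0.02 (Cd180).

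Per kilobase of exon, Cd14 and Tlr2 were the most abundant of these transcripts and Tlr1 and Tlr6 among the least. Cd14 was at 166 ± 124 CPM per kilobase at 50 kPa and 249 ± 120 at 2 kPa, and Tlr2 at 121 ± 34.3 at 50 kPa and 167 ± 80.2 at 2 kPa (SD, n = 3 each). These neighbours in the order did not differ beyond their spread. Myd88 followed at 31.9 ± 1.77 CPM per kilobase at 50 kPa and 47.8 ± 11.7 at 2 kPa, then Tlr4 at 25.8 ± 8.64 at 50 kPa and 25.9 ± 6.10 at 2 kPa. Myd88 and Tlr4 lay within their spread at 50 kPa but not at 2 kPa. Cd180 came next at each stiffness, its SD range meeting that of Tlr4, with 13.7 ± 4.15 CPM per kilobase at 50 kPa and 13.5 ± 6.36 at 2 kPa. Ly86 was next after Cd180 at 50 kPa with 11.2 ± 2.94 CPM per kilobase and last at 2 kPa with 1.59 ± 0.647. At 50 kPa Ly86 was within the spread of Cd180 above it and of Ly96 below it (8.32 ± 0.897), and at 2 kPa it lay below Tlr6 (4.77 ± 1.83). Tlr6 (4.54 ± 0.889) and Tlr1 (4.19 ± 3.09) did not differ beyond their spread at 50 kPa, nor at 2 kPa, where Tlr1 was at 7.12 ± 4.33.

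The transcripts whose pattern over the 6 libraries was most like that of Ly86 were sought among 9722 genes with a mean of at least 5 CPM. Likeness was the root mean square difference of log2 CPM, each gene centred on its own mean. The closest were Gpr162, an orphan receptor gene, at 0.24, Mmp13, which encodes collagenase 3, at 0.29, and Esyt3, an extended synaptotagmin gene, at 0.35. By the same measure Cd180 was at 1.48 from Ly86, and Ly96 and Tlr4 at 1.57 and 1.62. Gpr162 had 37.5, 36.0 and 32.8 CPM in high tension replicates 1 to 3, against 6.96, 3.48 and 8.05 CPM in low tension replicates 1 to 3. It shares with Ly86 the low value of low tension replicate 2, and its 50 kPa libraries were closer together.

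Markers of several cell types moved with the stiffness, and their part in the Ly86 difference was not tested. The 12 macrophage markers summed to 5422 to 6321 CPM at 50 kPa and 2127 to 4130 CPM at 2 kPa. The 13 dendritic cell markers, whose sum is mostly MHC class II genes and Cd74, came to 13795 to 21034 CPM at 50 kPa and 5704 to 11407 CPM at 2 kPa. Neither pair of ranges overlapped. The ratio of the mean sums was 1.75 for macrophage and 2.01 for dendritic cell markers, and that of the Ly86 means was 7.06. High tension replicate 3 was the lowest 50 kPa library for the dendritic cell sum and for Ly86. Low tension replicate 2 was the lowest of all for both. At 2 kPa the highest library was replicate 3 for that sum and replicate 1 for Ly86. By edgeR 0 of 12 tested macrophage markers and 0 of 12 tested dendritic cell markers were called. At an unadjusted p under 0.05 there were 7 (all higher) and 8 (5 higher and 3 lower), beside 27.8% of all genes. DESeq2 called 5 and 7, beside 18% of all genes. Among macrophage markers the smallest p-value belonged to Apoe, which encodes apolipoprotein E (log2 fold change 1.94 ± 0.45). Among dendritic cell markers the smallest belonged to Dpp4, the gene of CD26 (-1.41 ± 0.28), and Flt3, the receptor gene of dendritic cell precursors (-1.39 ± 0.39).

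B cell and neutrophil markers were lower at 50 kPa, and monocyte markers were mixed. The 11 B cell markers summed to 51.3 to 55.6 CPM at 50 kPa and 90.8 to 133 CPM at 2 kPa. Of them 10 had a negative log2 fold change. By edgeR 7 were called lower, beside 1.98% of all genes, led by Fcrla (-1.87 ± 0.22) and Cd79b (-2.81 ± 0.33). Cd22, which B cells share with other cells, was the exception and carried most of the 50 kPa sum, at 32.7 to 45.4 CPM at 50 kPa and 8.04 to 21.7 CPM at 2 kPa. The other 10 markers summed to 9.52 to 18.5 CPM at 50 kPa and 69.1 to 125 CPM at 2 kPa. The 13 neutrophil markers in the tables summed to 920 to 1727 CPM at 50 kPa and 3924 to 7525 CPM at 2 kPa. All 13 had a negative log2 fold change, and edgeR called 7 lower. The smallest p-values belonged to Ltf, lactoferrin (-3.28 ± 0.40), and Pglyrp1, a peptidoglycan recognition protein gene (-2.50 ± 0.30). Of 9 monocyte markers, 7 had a negative log2 fold change and 2 a positive one, with a median of -1.29. By edgeR 2 were called lower, among them Vcan, which encodes versican (-1.93 ± 0.35). Together the 9 summed to 3748 to 4201 CPM at 50 kPa and 2692 to 3503 CPM at 2 kPa. That sum was mostly Chil3, a chitinase-like protein gene, at 2917 ± 579 CPM at 50 kPa and 1806 ± 114 CPM at 2 kPa (SD, n = 3 each), and without it the other 8 summed to 810 to 1475 CPM at 50 kPa and 982 to 1571 CPM at 2 kPa, which overlapped. Chil3 (0.69 ± 0.20) and F13a1, the gene of a coagulation factor XIII subunit (0.86 ± 0.22), lay higher at 50 kPa without overlap, but edgeR called neither (adjusted p = 0.102 and 0.0817). By edgeR 0 B cell, 0 neutrophil and 0 monocyte markers were called without high tension replicate 1 or 2 or low tension replicate 2 or 3. The same held with high tension replicates 1 and 2 summed. In these fits 8 to 9, 10 to 11 and 3 were still lower at an unadjusted p under 0.05, beside 2062 to 4184 of all genes in either direction. With a filter of 5 CPM in 3 libraries, edgeR called 1 of 5 tested B cell, 3 of 13 neutrophil and 1 of 8 monocyte markers. No marker of the 5 lists found in the tables was at 0 in all libraries. Vpreb3 was at 0 in high tension replicates 1 and 2, and Ebf1, Pax5, Vpreb3 and Xcr1 averaged below 1 CPM. Vpreb3, which is among the called B cell markers, thus passed the filter on low counts only through its 2 kPa libraries, where it is higher. The part of these markers in the levels of Cd180, Cd14, Tlr1, Tlr2 and Myd88 was not tested.

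**Figure D4:**
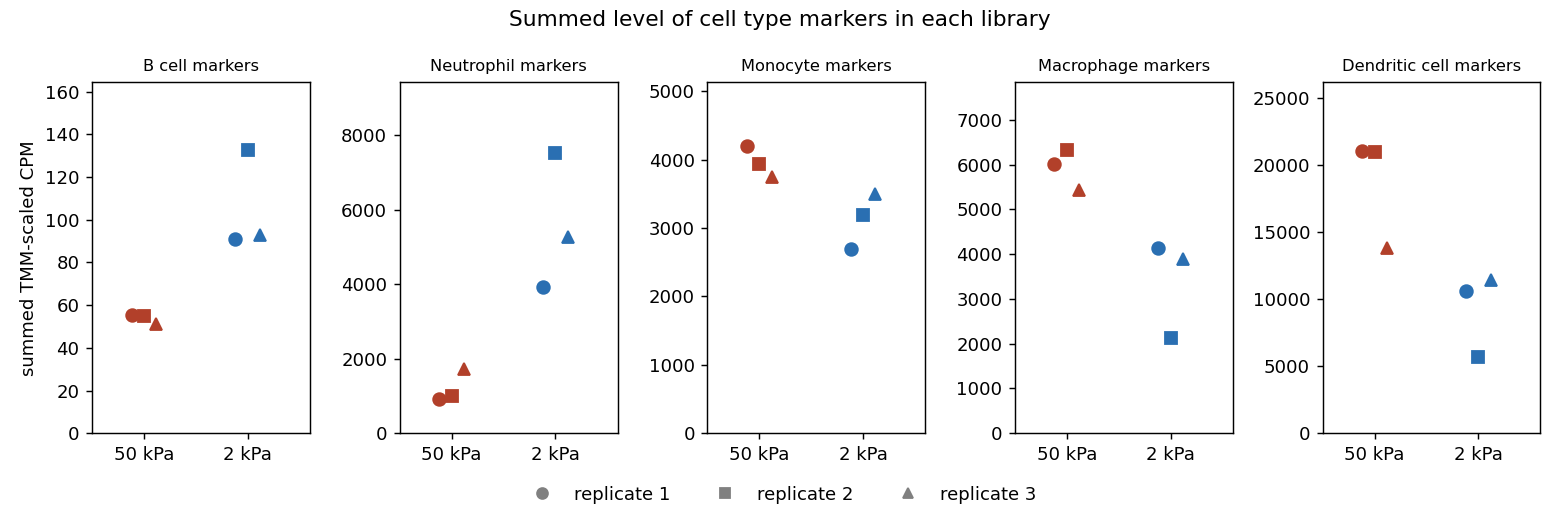
Summed TMM-scaled CPM of each marker list (y axis, from 0) in every library at 50 kPa (red) and 2 kPa (blue). Macrophage, dendritic cell and monocyte sums are higher at 50 kPa in all libraries, and B cell and neutrophil sums are lower, without overlap; the monocyte sum is mostly Chil3, without which its groups overlap.

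Around these receptors, the signalling genes gave few calls. Of 84 tested genes in 7 lists of the pathway, 1 rose and 2 fell at 50 kPa by edgeR's quasi-likelihood test with Benjamini-Hochberg adjustment, 3.57% against 3.45% of all genes, a share near the background. At an unadjusted p under 0.05 there were 25 of 84 (29.8%), beside 27.8% of all genes, and DESeq2 called 21 of 84, beside 18% of all genes. The same shares of all genes stand behind the counts of each list below. The gene that rose was Peli2, a ubiquitin ligase of the Pellino family that acts on IRAK kinases. It had 73.7, 77.1 and 73.6 CPM in high tension replicates 1 to 3, against 56.1, 53.0 and 48.3 CPM in low tension replicates 1 to 3. All 50 kPa libraries lay above all 2 kPa libraries (log2 fold change 0.51 ± 0.09, edgeR adjusted p = 0.0434). With total-count scaling, which moved the median of all genes to -0.16, Peli2 stood at 0.37 and was not called. No gene of these lists was called in 5 of the 6 fits that left out 1 library; without low tension replicate 1 the same 3 genes were called.

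Among 16 adaptors and kinases of the MyD88 arm, Peli2 was the only call by edgeR, and the median log2 fold change was -0.09. At an unadjusted p under 0.05 there were 3, Peli2 higher and Ikbkb (-0.44 ± 0.16) and Ube2n (-0.20 ± 0.08) lower, and DESeq2 called 1. Peli1, the other Pellino gene of the list, had the lowest log2 fold change, at -0.97 ± 0.43 (edgeR adjusted p = 0.202). Its groups overlapped. The IRAK kinase genes Irak1, Irak2 and Irak4 stood at 0.15 ± 0.11, -0.23 ± 0.26 and -0.03 ± 0.10, and Traf6, the ubiquitin ligase downstream of them, at 0.07 ± 0.19. The 9 genes of the TRIF arm, the second route of TLR4 signalling, held 0 genes that edgeR called, 1 with an unadjusted p under 0.05 and 1 that DESeq2 called, with a median of -0.17. Their smallest p-values belonged to the adaptor genes Tradd (-0.28 ± 0.09, edgeR adjusted p = 0.112) and Ticam2, which encodes the TLR4 adaptor TRAM (0.44 ± 0.22, edgeR adjusted p = 0.245). Of 13 negative regulators 0 were called by edgeR, 3 had an unadjusted p under 0.05 and DESeq2 called 3, with a median of -0.26. Tollip, which holds IRAK1 in check, ranged from 131 to 150 CPM in the 50 kPa libraries and from 94.1 to 114 CPM in the 2 kPa libraries, with an adjusted p of 0.0958 by edgeR. Il1rl1, the IL-33 receptor gene, ranged from 6.24 to 12.01 CPM in the 50 kPa libraries and from 12.97 to 40.2 CPM in the 2 kPa libraries, with an adjusted p of 0.0967 by edgeR.

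The chaperones and trafficking factors that bring Toll-like receptors to their membranes varied least of the pathway lists. All 9 lay between -0.17 and 0.22 in log2 fold change, with 0 calls by edgeR or DESeq2 and 0 at an unadjusted p under 0.05. Hsp90b1, the chaperone gp96 that folds most Toll-like receptors, was at 1255 CPM at 50 kPa and 1248 CPM at 2 kPa on average. Cnpy3, its co-chaperone, stood at 0.11 ± 0.12. Tmed7, a factor of TLR4 transport, and Lrrc59 had the smallest p-values, at 0.22 ± 0.13 and -0.17 ± 0.14.

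The list of LPS binding, clearance and co-receptor genes had a positive median of 0.58 over 8 tested genes, again with 0 calls by edgeR. These 8 also held the receptor genes Tlr5 (0.07 ± 0.43) and Tlr11 (0.84 ± 0.56, the highest of the list). At an unadjusted p under 0.05 there were 5, 4 higher and 1 lower, beside 27.8% of all genes. DESeq2 called 5, beside 18% of all genes. The higher ones were Cd36, Scarb1 and the integrin genes Itgam and Itgb2. The lower one was Lbp, the gene of LPS-binding protein itself, at 1.06, 1.31 and 3.24 CPM in high tension replicates 1 to 3, against 3.47, 10.1 and 4.87 CPM in low tension replicates 1 to 3 (log2 fold change -1.71 ± 0.57, edgeR adjusted p = 0.124, DESeq2 adjusted p = 0.0217). Its groups did not overlap. Cd36, a scavenger receptor that serves as co-receptor of TLR2 and TLR6, had 199, 202 and 218 CPM in high tension replicates 1 to 3, against 139, 113 and 147 CPM in low tension replicates 1 to 3. The groups did not overlap, and the log2 fold change was 0.64 ± 0.13 (edgeR adjusted p = 0.0521). Scarb1, the HDL receptor gene, stood at 0.71 ± 0.22 (edgeR adjusted p = 0.105). Bpi was not tested because of low counts. Among 10 signalling partners of RP105 known from B cells, 1 fell by edgeR and DESeq2 called 3. At an unadjusted p under 0.05 there were 4, of which 1 was higher and 3 lower. The median log2 fold change was -0.22, with 3 genes positive and 7 negative. The higher gene was Prkcb, at 0.69 ± 0.15 (edgeR adjusted p = 0.0619, DESeq2 adjusted p = 0.000935), and its groups did not overlap. Pik3cd (0.55 ± 0.26) and Vav2 (0.08 ± 0.16) were also positive, with groups that overlapped. Lyn, the Src-family kinase gene of this route, stood at -0.03 ± 0.15, Btk at -0.23 ± 0.11 and Vav1 at -0.39 ± 0.16.

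Genes that LPS is known to induce were mostly lower at 50 kPa, with low tension replicate 3 standing out. Of 19 tested, 18 had a negative log2 fold change and the median was -1.53, beside -0.03 for all genes. DESeq2 called 8, beside 18% of all genes. By edgeR 9 had an unadjusted p under 0.05, all lower, beside 14.8% of all genes lower, and 1 was called. The called gene was Il10, the gene of the anti-inflammatory cytokine IL-10, with 0.529, 0.269 and 0.550 CPM in high tension replicates 1 to 3, against 2.51, 3.41 and 6.04 CPM in low tension replicates 1 to 3 (log2 fold change -3.14 ± 0.45, edgeR adjusted p = 0.0353). The groups did not overlap, and these are low levels, 485 counts over all libraries. Low tension replicate 3 was the highest of the 6 libraries for 17 of the 19 genes, and without it the median was -0.70 with 15 of 19 negative. Without high tension replicate 3 the median was -2.51, over 20 tested genes. The 19 genes summed to 2149, 1948 and 4844 CPM in high tension replicates 1 to 3, against 3615, 4110 and 12506 CPM in low tension replicates 1 to 3. These sums overlapped through high tension replicate 3, the library that was also the highest of its group for Cd14, Tlr1, Tlr2 and Tlr4. With replicate number as a block, edgeR called 9 of the 19, beside 776 of all 13155 genes. The labels name no LPS or other microbial stimulus for any sample.

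**Figure D5:**
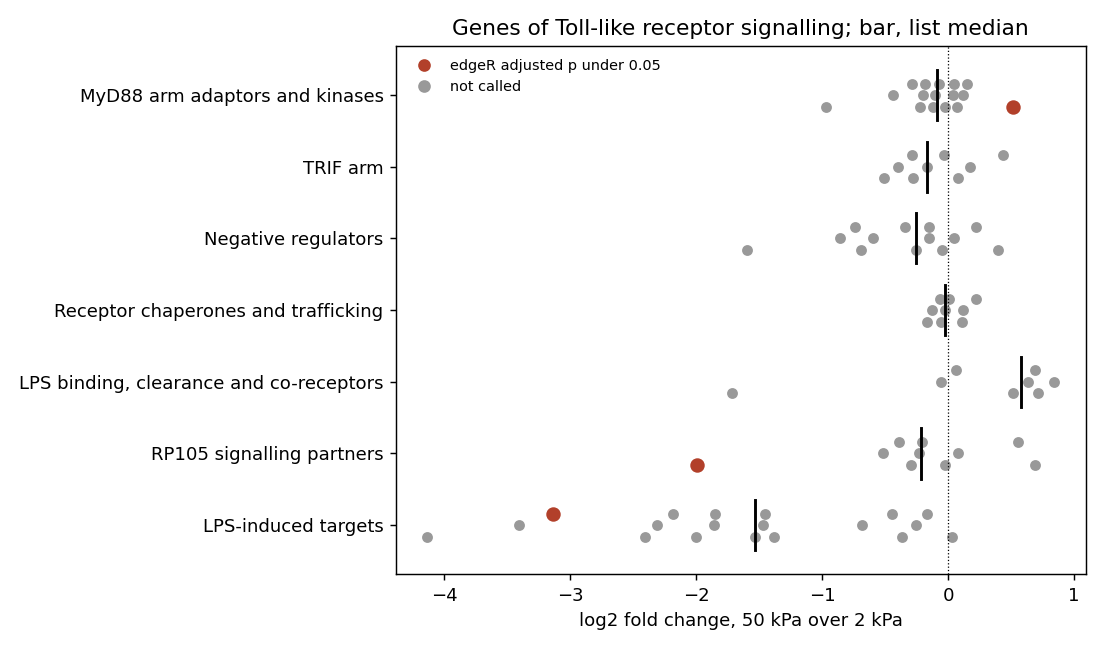
Log2 fold change, 50 kPa over 2 kPa (x axis), of each tested gene in the 7 pathway lists; bars are list medians and red points are genes with an edgeR adjusted p under 0.05, among them Peli2 and Il10. The LPS-induced targets have a median of -1.53 and the LPS-binding list 0.58; the other medians lie between -0.26 and -0.02.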

How the data were processed

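PolyA RNA-seq of 3 samples at 50 kPa and 3 at 2 kPa was analysed from read counts per gene symbol, deposited by the authors as 1 table per library. TopHat2 2.0.11, HTSeq 0.6.1p2, FastQC 0.11.2, edgeR 3.16.5 and 3.8.6, mm10 and hg19 stand without a role in the list, per the submitters' processing notes. The sources used here do not state annotation or strand setting. The gene list, the pathway and marker lists and the tests were chosen with earlier results of these data known. Genes named were the 9 members, the calls of each pathway list or else its 2 smallest p-values, 2 per marker list, and the 3 nearest patterns. Other pathway and marker genes, and those singled out in the closing section, were chosen after their values were seen. Some genes that the rule names are not reported here.

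Counts were fitted in R 4.3.3 with edgeR 4.0.16 (filterByExpr minimum count 10 and total 15, TMM, glmQLFit and glmQLFTest, stiffness as the term), with Benjamini-Hochberg adjustment over 13155 genes and a threshold of 0.05. The SE is the log2 fold change divided by the square root of F. The common biological coefficient of variation was 24.6%. The p-values therefore reflect sample-to-sample spread only, possibly a technical one. Alternatives used DESeq2 1.42.0, limma 3.58.1, other scalings, filters and a replicate block, and each library left out. Marker sums without their most abundant gene were added after the data were seen. Exon lengths and coordinates came from GENCODE vM21 on GRCm38, promoters from RefSeq GRCm38.p6, which held 6 of the 9 genes. Replicate numbers were not taken as pairs in the main fit. Deviations of same-numbered libraries correlated with r = 0.54, -0.11 and 0.49 over genes, so numbers 1 and 3 varied together and number 2 did not. The fit with replicate number as a block is given as an alternative. Python 3.11.15 and matplotlib 3.10.9 drew the plots.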

Additional observations from a re-analysis of the deposited data

How the results depend on the processing

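With 1 library left out, genes called numbered 0 to 255 higher and 0 to 256 lower over all genes, 0 to 1 and 0 to 2 in the pathway lists and 0 to 1 higher among the 9 receptor genes; the fits with 0 calls over all genes, without high tension replicate 1 or 2, still gave 2080 and 2062 genes at an unadjusted edgeR p under 0.05. Total-count scaling gave 77 higher genes, 0 higher pathway genes and 1 lower member, Myd88. Without a low-count filter 0 pathway genes were called higher. A filter of 5 CPM in 3 libraries gave 20 higher and 19 lower genes, with 0 and 0 in the pathway lists and 0 higher members, at 2555 genes with an unadjusted p under 0.05. With DESeq2 1121 genes were higher and 1251 lower, with 7 and 14 pathway genes and 1 lower member. Limma-voom called 1 lower pathway gene. With replicate number as a block, edgeR called 522 lower genes and 3 higher and 9 lower pathway genes; 3 of 6 libraries correlated best with their own number. With high tension replicates 1 and 2 summed, edgeR called 0 and 0 genes, 0 and 0 pathway genes and 0 higher members, at 2138 genes with an unadjusted p under 0.05. Signs reversed for genes near no difference: Cd180 stood at -0.063 with total-count scaling and between -0.28 and 0.43 with 1 library left out, Tlr4 at 0.00674 without a filter, 0.15 with the summed sample and -0.31 to 0.15 with 1 library left out, Tlr6 at 0.021 with the summed sample and -0.24 to 0.29 with 1 library left out, and Tlr2 at -0.71 to 0.0062 with 1 library left out. The cause of these shifts was not tested. The log2 fold change of Ly86 kept its sign in all 14 alternatives (2.51 to 3.03), as did those of Myd88 (-0.73 to -0.38), Cd14 and Tlr1. With the most abundant gene left out of a marker sum, an alternative chosen after seeing the data, the log2 ratio of the sums, 50 kPa over 2 kPa, was -0.34 for monocyte markers, against 0.34 with it, and -2.64 for B cell markers, against -0.97 with it, and the other lists kept their direction.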

Other observations

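Cd180, Ly96 and Tlr4 each had close neighbours in pattern over the 6 libraries, by root mean square difference of centred log2 CPM among 9722 genes. For Cd180 these were Pvrl4 (0.083), the gene of a nectin, Ly9 (0.12), a SLAM family receptor gene of lymphocytes and macrophages, and Ms4a7 (0.12), a macrophage gene. Ly9 had 108, 98.8 and 145 CPM in high tension replicates 1 to 3, against 108, 72.5 and 197 CPM in low tension replicates 1 to 3, with the third replicate the highest of each group as in Cd180. For Tlr4 they were Klrb1b (0.068), Micall2 (0.074) and Pknox2 (0.092). For Ly96, which varied little, they were D11Wsu47e (0.034), Wtap (0.035) and Xrcc4 (0.037).

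Of the LPS-induced genes, Cxcl10 and Il6 stood furthest below 0 in log2 fold change, with a wide spread within each stiffness. Cxcl10, an interferon-inducible chemokine gene, had 14.5, 7.40 and 94.4 CPM in high tension replicates 1 to 3, against 318, 31.4 and 1692 CPM in low tension replicates 1 to 3 (log2 fold change -4.13 ± 1.62, edgeR adjusted p = 0.166), and its groups overlapped. Il6 had 2.64, 1.52 and 16.7 CPM in high tension replicates 1 to 3, against 28.4, 54.0 and 139 CPM in low tension replicates 1 to 3 (-3.40 ± 1.05, edgeR adjusted p = 0.11). The groups of Il6 did not overlap. Both genes were singled out after their values were seen, and both miss the threshold by edgeR and pass it by DESeq2, with adjusted p-values of 0.0369 for Cxcl10 and 0.0205 for Il6.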
